A study of Mus musculus with 8 samples.

Results

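The transcripts described here are RefSeq noncoding RNAs detected in mouse heart. They were every feature of the array whose accession begins with NR (curated noncoding transcripts) or XR (predicted noncoding transcripts) and whose probe was well above background in at least 4 of 8 hearts. The array carried 1744 such accessions, 675 passed this filter, and 21 of these on the X or Y chromosome were left out, which gave 654 noncoding transcripts, 465 NR and 189 XR, among 22317 measured features. A RefSeq gene table matched 434 of them, 433 could be named on an autosome (430 gene symbols), and the 220 that were not matched are counted but not named, and may include X-linked transcripts. Long noncoding RNAs made up 320 of the matched transcripts, transcribed pseudogenes 92, and noncoding variants of protein-coding genes 11.

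Hearts were taken from 4 mice homozygous for a Pus1 mutation and from 4 wild types, with 2 females and 2 males in each group. All animals, mutant and wild type, were C57BL/6J with 5 backcross generations and 14 to 16 weeks old, and a piece of atrium and ventricle was taken; neither the allele nor the cells that carry it are described in the labels. Each of 4 Agilent 2-colour arrays held 1 mutant and 1 wild-type heart of one sex. Arrays 1 and 2 held females and arrays 3 and 4 males, and the mutant was labelled with Cy5 on arrays 1 and 3 but with Cy3 on arrays 2 and 4. Hearts are numbered by their array.

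Pus1 encodes a pseudouridine synthase, an enzyme that turns uridine into pseudouridine in transfer RNAs and, in yeast, also in the U2 small nuclear RNA of the spliceosome. Noncoding RNAs act as RNA: some are parts of ribonucleoprotein enzymes, some build nuclear bodies or silence neighbouring genes, and others are mainly carriers from whose introns small nucleolar RNAs (snoRNAs) or microRNAs are cut. SnoRNAs themselves guide pseudouridylation and methylation of ribosomal RNA through enzymes other than Pus1. The labelling kit named in the labels primes on poly(A) tails, so that values for RNAs without a tail, such as small nuclear RNAs, may come from rare or precursor forms.

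Several of the measured transcripts are known mainly as carriers of microRNAs, and 7 named noncoding transcripts contained a microRNA hairpin in RefSeq. The mature microRNAs below are shown because their host transcripts are described in the results; the arrays measured the hosts and not the mature forms. Sequences are from RefSeq, build GRCm38.p6, written 5′ to 3′, with the seed (bases 2 to 8) in capitals.
mmu-miR-22-3p, from Mir22hg on chromosome 11, plus strand: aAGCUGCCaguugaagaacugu
mmu-miR-92a-3p, from Mir17hg on chromosome 14, plus strand: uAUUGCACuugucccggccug
mmu-miR-16-5p, from Dleu2 on chromosome 14, minus strand: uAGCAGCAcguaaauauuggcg
mmu-miR-154-3p, from Mirg on chromosome 12, plus strand: aAUCAUACacgguugaccuauu
mmu-miR-410-3p, from Mirg on chromosome 12, plus strand: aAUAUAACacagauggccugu
mmu-miR-294-3p, from D7Ertd143e on chromosome 7, plus strand: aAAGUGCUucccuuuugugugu
mmu-miR-295-3p, from D7Ertd143e on chromosome 7, plus strand: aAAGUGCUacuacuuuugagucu
The 2 microRNAs shown for D7Ertd143e, a transcript known from embryonic stem cells, have the same seed, and the other 5 shown each have a seed of their own. D7Ertd143e contains 5 hairpins in RefSeq, and its mature forms that are not shown have other seeds.

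Levels are normalized log2 intensities of one probe in one heart and are set against each other only within a probe. Ratios are log2 ratios of mutant over wild type within an array, and fitted ratios come from limma with a term for the dye. Pus1 itself was measured first, as a check of the labels. Its level was 7.07, 7.56, 7.24 and 7.13 in mutant replicates 1 to 4, against 9.22, 9.23, 8.92 and 9.01 in wild-type replicates 1 to 4. The mutant was lower on every array and the groups did not overlap; the fitted log2 ratio was -1.85 (SE 0.13, n = 4 arrays), with a limma unadjusted p of 7.3e-05 and an adjusted p of 1.00. The tissue label was borne out by cardiac muscle markers, with 6 of 6 listed genes measured and well above background in all 8 hearts. Over all probes, 44.7% to 54.6% were well above background in mutant hearts and 46.3% to 53.8% in wild-type hearts. Of the 654 noncoding transcripts, 457 were above background in all 8 hearts and 30 in exactly 4. At that edge 1700042G15Rik lay between 6.66 and 7.34 in mutants and between 6.75 and 7.24 in wild types, while 1700028J19Rik, above background in only 3 hearts and so not included, lay between 6.77 and 7.23 over the 8 hearts.

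The first comparison asked which noncoding RNAs differ between mutant and wild-type hearts. None of the 654 passed the test at an adjusted p of 0.05 (limma, Benjamini-Hochberg over 22317 features), where 0% of all features passed. At an unadjusted p under 0.05 there were 7 noncoding transcripts (1.07%), beside 1.04% of all features. One of the 7, Platr26, passed the filter only through its mutant hearts, where it was high. Both shares are below what a threshold of 0.05 passes by chance, and Pus1 itself did not pass after adjustment. The lack of calls therefore does not show that these RNAs are unchanged. With a sex term in the limma fit, 14 noncoding transcripts and 516 features had an unadjusted p under 0.05. The fitted ratios of the 654 ran from -0.61 to 0.60 with a median of -0.04, beside -0.01 over all features. A negative fitted ratio was found in 416 of the 654 (63.6%), beside 55.4% of all features. Among features that were not noncoding transcripts the share was 55.1%, and among the curated coding transcripts within that set 49.6%. The rest of that set therefore had negative ratios at more than 55.1%, and its own share was not computed. The excess of negative ratios is thus not shown to be particular to RefSeq noncoding transcripts. The median of the noncoding transcripts was 0.08 on array 1, 0.12 on array 2, -0.22 on array 3 and -0.09 on array 4. It was positive on both female arrays and negative on both male ones. The median of all features had the same signs, at 0.03, 0.02, -0.03 and -0.01 on arrays 1 to 4. In whole tissue, fewer cells of a type and less RNA per cell cannot be told apart.

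The ratio had one sign on all 4 arrays for 32 noncoding transcripts, 10 of them higher in the mutant (1.53%, background 2.31% of all features) and 22 lower (3.36%, background 2.55%). All 4 mutant levels lay above all 4 wild-type levels for 3 transcripts (0.459%, background 0.345%) and below them for 6 (0.917%, background 0.372%). One of the 3, Platr26, passed the filter only through its mutant hearts, and 2 (0.306%) remain without it. Platr26 is also among the 10 that were higher on all 4 arrays. No transcript named in the following paragraphs passed the test between genotypes.

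The highest-ranked of the transcripts that were higher on every array was 1500011B03Rik, a long noncoding RNA of unknown role on chromosome 5. Its level was 7.94, 7.91, 8.03 and 7.85 in mutant hearts, against 7.53, 7.21, 7.60 and 7.38 in wild-type hearts. Every mutant heart lay above every wild-type heart, in both sexes. The fitted log2 ratio was 0.50 (SE 0.11, n = 4 arrays; limma unadjusted p = 0.0071, adjusted p = 1.00). A second accession of the same gene gave ratios of 0.38, -0.24, 0.19 and 0.29 on arrays 1 to 4, so the 2 accessions did not move alike on array 2. The fitted ratio of the first was 0.98 with the scanner's processed signals and 1.00 with the series matrix values.

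Platr26, a transcript catalogued in pluripotent cells, was well above background in 4 of 4 mutant hearts and in 0 of 4 wild-type hearts. Its measured level was 6.96, 6.99, 7.22 and 7.17 in mutants, against 6.66, 6.70, 6.63 and 6.57 in wild types. Since the wild-type side has only a bound, the mutant is given as at least 1.34-fold higher, set against the mean of the dimmest signal that counted as above background or the probe's own signal, whichever was higher (limma adjusted p = 1.00). Its fitted log2 ratio, which is no bound, was 0.45 as reported but 2.00 with processed signals. H2-Q5 belongs to the class I major histocompatibility genes of the Qa region, is classed as a transcribed pseudogene in RefSeq, and is close in sequence to its relatives. Its level was 9.75, 9.65, 8.92 and 9.29 in mutants, against 9.39, 9.18, 8.66 and 9.06 in wild types. The mutant was higher within each pair although the groups overlapped, with a fitted log2 ratio of 0.33 (SE 0.11, n = 4 arrays). The transcribed pseudogene Gm15421 had 13.12, 13.07, 13.17 and 13.10 in mutants, against 12.84, 13.01, 13.01 and 12.52 in wild types. These groups did not overlap, and the ratio was carried mostly by the low wild-type replicate 4; the fitted ratio was 0.27, and 0.14 without replicate pair 4. The other 4 of the 8 transcripts named by the smallest p were 1110019D14Rik (0.19), D5Ertd605e (0.19), Pisd-ps1 (0.17), a pseudogene of the phosphatidylserine decarboxylase gene, and 1700096K18Rik (0.13), all fitted log2 ratios with an SE of 0.10 or 0.11. D5Ertd605e was well above background in 3 of 4 mutant and 1 of 4 wild-type hearts. With processed signals its ratio was 0.61 and that of 1700096K18Rik 0.47, and with median centring that of 1110019D14Rik was 0.31 and that of Pisd-ps1 0.30.

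Among transcripts lower on every array, Malat1 had the largest named ratio. Malat1 is an abundant nuclear RNA that gathers in nuclear speckles, where splicing factors are stored. Its level was 9.67, 10.37, 10.03 and 10.10 in mutant hearts, against 10.36, 10.48, 10.17 and 10.69 in wild-type hearts. The groups overlapped, and the difference was larger on arrays 1 and 4 (ratios of -0.69 and -0.59) than on arrays 2 and 3 (-0.11 and -0.14). The fitted log2 ratio was -0.38 (SE 0.16, n = 4 arrays; limma unadjusted p = 0.067, adjusted p = 1.00), and without replicate pair 1 it was -0.24.

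Sp3os is transcribed opposite Sp3, which encodes a zinc-finger transcription factor. Sp3os stood at 11.23, 11.49, 11.35 and 11.45 in mutant hearts, against 11.69, 11.76, 11.66 and 11.50 in wild-type hearts. All mutant levels lay below all wild-type levels, by a narrow margin on array 4. The fitted log2 ratio was -0.27 (SE 0.11, n = 4 arrays), and a second probe of Sp3os, negative on all 4 arrays as well, averaged -0.25. The Sp3 probe itself had ratios of 0.38, -0.51, 0.48 and 0.33, so its sign was opposite to that of Sp3os on 3 arrays.

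4932412D23Rik, a transcript of unknown role, had ratios of -0.36, -0.13, -0.36 and -0.39 on arrays 1 to 4 (fitted -0.31, SE 0.11). Thap6, named for a THAP zinc-finger gene and classed as a transcribed pseudogene in RefSeq, had ratios of -0.26, -0.36, -0.30 and -0.18 (fitted -0.28, SE 0.10). The ratios of Thap6 lay close together. Crnde, a long noncoding RNA described in tumours, had more uneven ratios of -0.37, -0.14, -0.04 and -0.45. The other 3 were Gm4956 (-0.23, SE 0.11), Gm5779 (-0.22, SE 0.10) and 5031434O11Rik (-0.24, SE 0.13), the last mostly from array 1, where its ratio was -0.72. With median centring the fitted ratios of Sp3os, Thap6, Crnde, Gm4956 and Gm5779 lay between -0.17 and -0.09, nearer 0 than as reported.

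**Figure D1:**
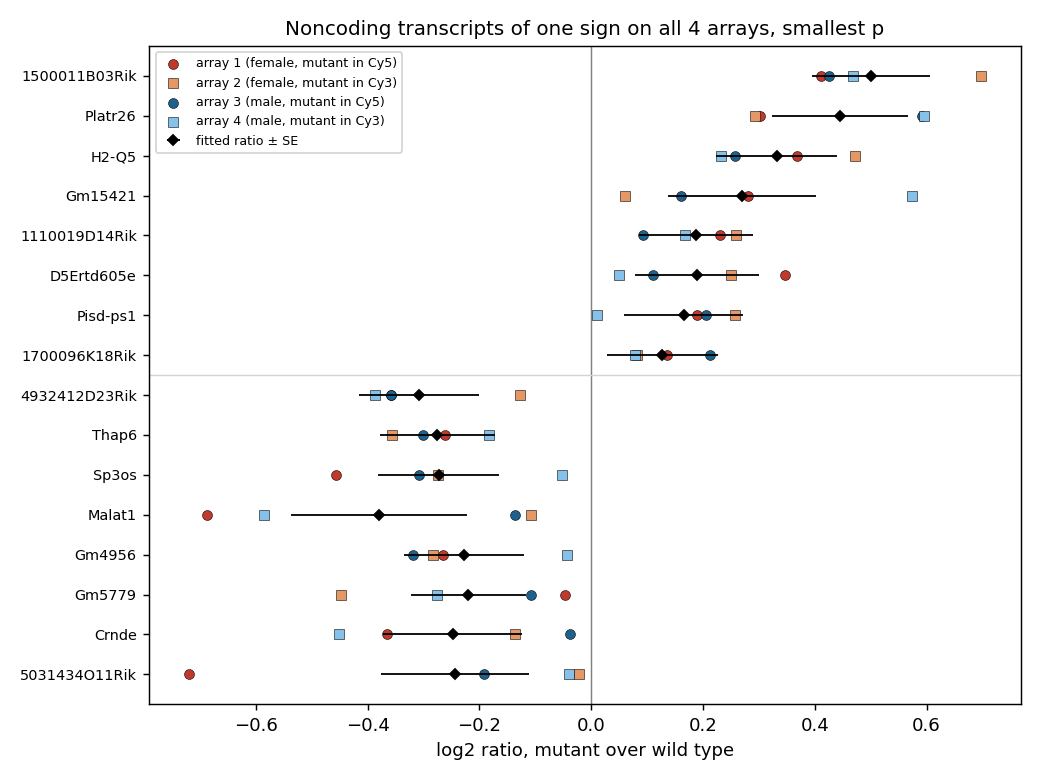
Log2 ratio of mutant over wild type (x axis) on each of the 4 arrays for the 8 higher and 8 lower named transcripts with 1 sign on all arrays and the smallest p; circles have the mutant in Cy5, squares in Cy3, reds are female pairs, blues male pairs, and diamonds are fitted ratios with their SE. Among the diamonds 1500011B03Rik lies furthest to the right at 0.50 and Malat1 furthest to the left at -0.38.

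Of these 16 named transcripts 5 lie on chromosome 5, which also holds Pus1. They are 4 of the 8 that were higher, 1500011B03Rik, Gm15421, D5Ertd605e and 1700096K18Rik, and 1 of the 8 that were lower, Thap6, and this was noticed after their values were seen. The other named transcripts with 1 sign on all arrays added none, so that 5 of 25 lie on this chromosome. Chromosome 5 carries 28 of the 433 named noncoding transcripts. 1500011B03Rik and Thap6 lie within 20 Mb of Pus1 by the RefSeq table. D5Ertd605e, 1700096K18Rik and Gm15421 lie 36.6, 85.2 and 88.2 Mb from it. The 3 further accessions within 20 Mb, among them the second accession of 1500011B03Rik, had mixed signs. DNA that stays linked to an altered allele through backcrossing cannot be told apart from the genotype in this design.

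RNAs built into ribonucleoproteins were measured for 5 of 21 listed genes. Rnu2-10, a copy of the U2 small nuclear RNA gene, stood at 8.35, 9.13, 8.96 and 8.55 in mutants, against 8.87, 9.00, 8.80 and 9.07 in wild types. Mutant replicates 1 and 4 lay below all wild-type hearts and mutant replicate 2 above them, so the groups overlapped; the fitted log2 ratio was -0.19 (SE 0.19, n = 4 arrays; limma adjusted p = 1.00). Copies of U2 are nearly identical and the probe may read several of them. Rnu12, the U12 RNA of the minor spliceosome, had a fitted ratio of -0.14 (SE 0.12). Rmrp, the RNA of ribonuclease MRP, which acts in ribosomal RNA processing, had ratios of -0.84, -0.08, 0.34 and 0.11. Terc, the template RNA of telomerase, had ratios of 0.44, 0.34, -0.31 and -0.09. Neither kept a sign over the 4 arrays, and the fifth, Rn4.5s, is described with the differences between sexes. The list's median was -0.12, with 1 positive ratio of 5 and 0 past the test, and ran from -0.22 to -0.02 when a replicate pair was left out.

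Host genes of snoRNAs were measured for 11 of 22 listed genes. Their median log2 ratio was -0.04, with 2 positive and 9 negative and 0 past the test, beside a median of -0.01 over all features; under median centring of the arrays it was 0.09, where all features had 0.08. It ran from -0.09 to -0.01 when a replicate pair was left out. Snhg6 was below 0 on all 4 arrays, with ratios of -0.00, -0.45, -0.15 and -0.08. Snhg18 had the lowest fitted ratio, -0.22 (SE 0.14), with 0.06 on array 3. Snhg1, which carries 8 snoRNA genes in its span, stood at 8.13, 7.55, 8.26 and 7.90 in mutants, against 7.96, 8.05, 8.01 and 7.77 in wild types. The mutant was higher on arrays 1, 3 and 4 and lower on array 2, with a fitted ratio of 0.01 (SE 0.15). Dancr, Snhg3 and Snhg7 had ratios whose sign differed by dye orientation, and Snhg10, Snhg12, Snhg16 and Snhg17 had fitted ratios between -0.12 and -0.04. Over all named noncoding transcripts 16 contained a snoRNA gene, and their median was -0.04 with 5 positive. Snora47 and Snora74a, snoRNAs of the class that guides pseudouridylation, had fitted ratios of -0.04 (SE 0.14) and -0.22 (SE 0.19). Rnu3b1, a copy of the U3 RNA, which acts in ribosomal RNA processing, had one of -0.14 (SE 0.19).

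The 4 transcripts named as microRNA hosts had negative fitted ratios and a median of -0.17, none past the test; the median ran from -0.31 to -0.01 when a replicate pair was left out, the last without pair 1. Mir17hg, the host of miR-92a-3p and of the rest of an oncogenic cluster, stood at 7.66, 8.07, 8.25 and 8.22 in mutants, against 8.35, 8.57, 8.16 and 8.12 in wild types. Mutant females were below their partners and mutant males slightly above, with a fitted ratio of -0.25 (SE 0.19). Mir22hg, the host of miR-22-3p, a microRNA abundant in heart muscle, stood at 7.95, 8.60, 8.31 and 8.61 in mutants, against 8.94, 8.52, 8.33 and 8.46 in wild types. Its ratio of -0.20 (SE 0.19) came from array 1, where it was -0.98. Mirg, the host of miR-154-3p and miR-410-3p in an imprinted domain, had ratios of -0.31, -0.19, -0.10 and 0.06. Mir99ahg had a fitted ratio of -0.02 (SE 0.13) and contained no hairpin in RefSeq. The 7 named transcripts that did contain one had a median of -0.13, with 1 positive. Dleu2, the host of miR-16-5p, had ratios of -0.15, 0.25, -0.28 and 0.21, which alternate with the dye.

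Imprinted noncoding RNAs, expressed from 1 parental copy, were measured for 5 of 15 listed genes, with a median of -0.13 and 1 positive. The median ran from -0.29 to 0.01 when a replicate pair was left out, and turned positive without pair 4. Kcnq1ot1 and Airn are long antisense RNAs that silence neighbouring genes in cis. Kcnq1ot1 had ratios of -0.58, 0.59, -0.62 and 0.01, and Airn -0.40, 0.92, -0.94 and -0.03. Both were negative with the mutant in Cy5 and higher with it in Cy3. A second, dimmer Kcnq1ot1 probe had ratios of -0.16, 0.14, -0.62 and -0.18, and a second, dimmer Airn probe had ratios of 0.12, 0.16, 0.05 and -0.00, the last without that alternation. Peg13 had a fitted ratio of 0.00 (SE 0.13) and Igf2os, antisense to the growth factor gene Igf2, one of -0.18 (SE 0.19).

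Among nuclear and chromatin-associated RNAs, 6 of 16 listed genes were measured with 7 accessions, and among RNAs described in heart 9 of 21 with 10 accessions. The medians were -0.11 (2 of 7 positive) and -0.08 (4 of 10 positive), none past the test, and the lists share members. With median centring both medians were 0.02, where all features had 0.08. Neat1, the scaffold of paraspeckles, stood at 14.74, 15.93, 15.19 and 15.76 in mutants, against 15.58, 14.86, 15.48 and 14.92 in wild types. Whichever heart of a pair was in Cy3 read higher, on all 4 arrays. Tissue markers differed along the same arrays. The median ratio of 6 cardiac muscle markers was 0.45, -0.33, 0.26 and -0.33 on arrays 1 to 4, that of 7 atrial markers -0.76, 1.29, 0.25 and 2.51, and that of 5 adipocyte markers -0.33, 0.91, -0.04 and 1.58. With 1 array for each sex and dye orientation, the part of tissue composition in ratios that alternate with the dye, here and in the other transcripts named for it, was not tested. The fitted log2 ratio with the dye term was 0.20 (SE 0.14, n = 4 arrays) and the dye coefficient -0.76 (log2, Cy5 over Cy3). Mhrt, an RNA transcribed antisense to the cardiac myosin heavy chain genes and known to oppose hypertrophy in mice, had the same alternation. It stood at 14.07, 14.77, 13.85 and 14.31 in mutants, against 14.78, 13.73, 14.66 and 13.97 in wild types, with a fitted ratio of -0.04 (SE 0.16) and a dye coefficient of -0.72. One accession of Tug1, a conserved chromatin-associated RNA, had a dye coefficient of -0.63 and another one of -0.05. Norad, a cytoplasmic RNA that binds Pumilio proteins, had ratios of 0.22, -0.36, -0.29 and 0.13 with its brightest probe. Of its 3 dimmer probes, 1 was negative on all 4 arrays, with -0.26, -0.26, -0.19 and -0.17. Pvt1, a neighbour of Myc, had a fitted ratio of -0.13 (SE 0.15).

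**Figure D2:**
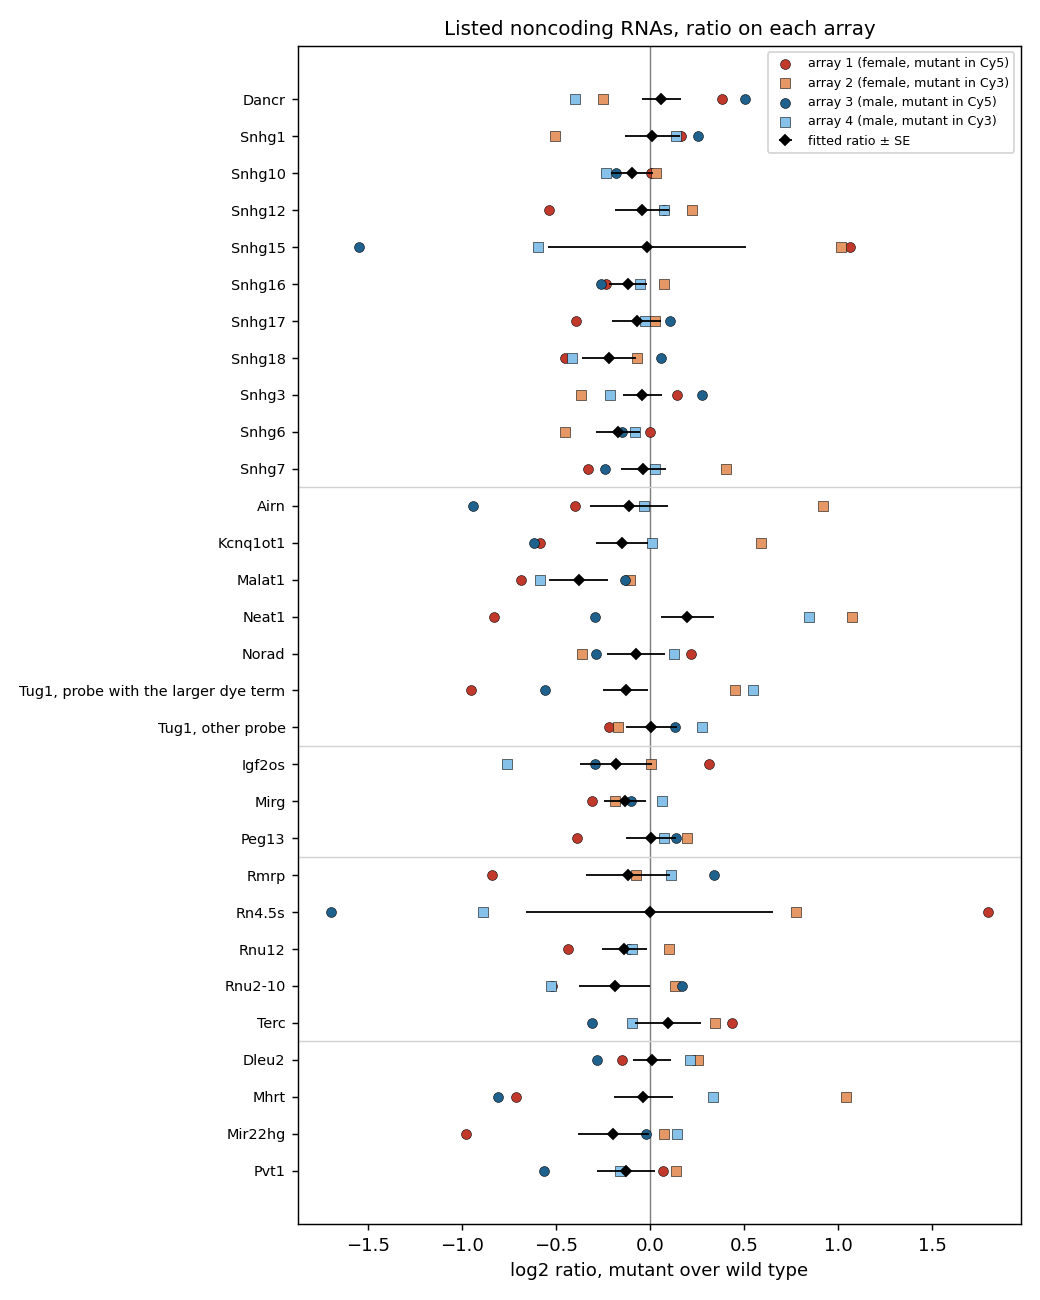
Log2 ratio of mutant over wild type (x axis) on each array for listed noncoding RNAs, from top to bottom snoRNA hosts, nuclear RNAs, other imprinted RNAs, ribonucleoprotein RNAs and other RNAs described in heart; diamonds are fitted ratios with their SE. The diamonds lie between -0.38 (Malat1) and 0.20 (Neat1), and for Neat1, Mhrt and 1 Tug1 probe squares (mutant in Cy3) lie right of 0 and circles left of it.

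The dye coefficient was larger in size than the genotype ratio for 458 of the 654 noncoding transcripts (70.0%), beside 71.4% of all features. It had an unadjusted p under 0.05 for 65 of them (9.94%), beside 9.86% of all features. A dye coefficient beyond 0.5 in size was found for 43 (6.57%), beside 5.01% of all features.

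**Figure D3:**
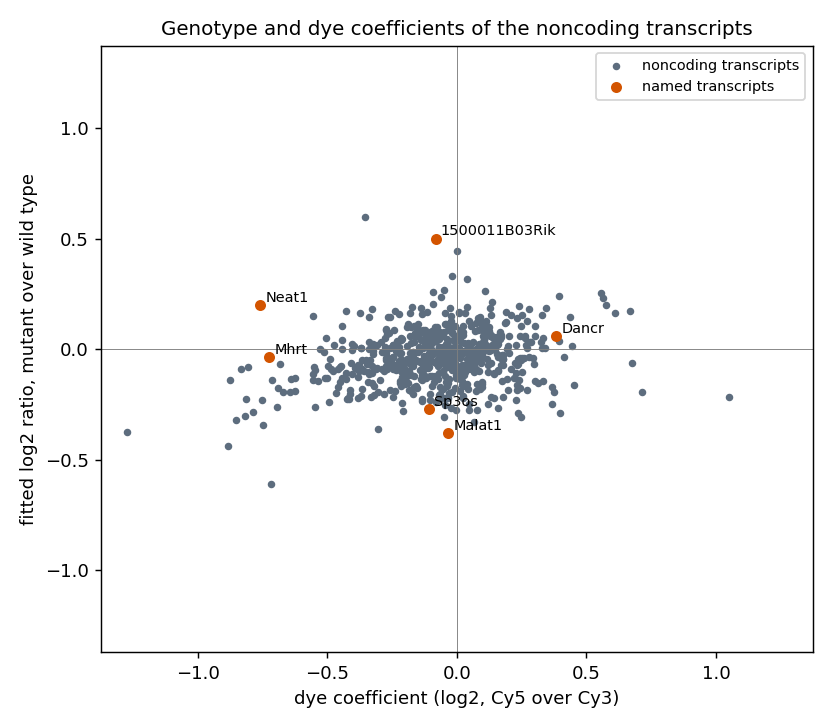
Fitted log2 ratio of mutant over wild type (y axis) against the dye coefficient (x axis, log2, Cy5 over Cy3) for the 654 noncoding transcripts, on equal scales, with 6 named transcripts in orange. The cloud is wider along the dye axis; Neat1 lies at -0.76 and Mhrt at -0.72 on it, while 1500011B03Rik and Sp3os lie near its centre line.

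Opposite-strand transcripts named after a coding gene numbered 23, with a median of -0.01 and 9 positive, none past the test, and 19 had a measured partner. A partner is the coding gene that the symbol names, and the 2 need not overlap. By RefSeq positions Zfp652os, Med9os and Fbxl12os, among others, overlap no coding gene. Zfp652os had ratios of -0.05, -0.35, 0.20 and 0.12 and its partner Zfp652, a zinc-finger gene, -0.22, -0.47, 0.55 and 0.31, the same sign on all 4 arrays. Dlx6os2 and the homeobox gene Dlx6 also had the same sign on all 4. Such full matches were not the rule, and most of the 19 pairs had the same sign on 2 arrays or fewer. Med9os matched the sign of Med9, a Mediator subunit gene, on 1 array. Vax2os and Dnmt3aos matched their partners on 0 arrays. By RefSeq positions, 171 of the 433 named transcripts overlap a coding gene and 262 do not, and the medians of these sets were -0.04 and -0.03. Most of the named transcripts have only a clone or prediction name. The 183 RIKEN clone transcripts had a median of -0.04 with 65 positive, and the 112 predicted genes one of -0.02 with 49 positive. When a replicate pair was left out, the medians of the opposite-strand, RIKEN and predicted transcripts lay between -0.11 and 0.03 and took either sign. The narrowest ratios of all the named transcripts belonged to Cerox1, a cytoplasmic RNA known in mouse cells to raise levels of respiratory complex I subunits, with -0.02, -0.01, 0.03 and -0.02.

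The second comparison asked whether the ratio of mutant over wild type differed between females and males. It was called for 130 of the 654 noncoding transcripts (19.9%; limma genotype-by-sex term, adjusted p under 0.05), beside 9.26% of all features. All 130 had a higher ratio in females (background 9.15%) and 0 a lower one (background 0.117%). Among features that were not noncoding transcripts 8.94% were called, and among the curated coding transcripts within that set 5.13%. The rest of that set was therefore called at more than 8.94%, and its own share was not computed. The excess is thus not shown to be particular to RefSeq noncoding transcripts. The share was 18.7%, 22.0% and 19.5% in noncoding transcripts of low, middle and high intensity, the features being divided into 3 equal classes, beside 9.53%, 10.1% and 7.23% in the other features of these classes. Of the long noncoding RNAs 62 of 320 were called (19.4%) and of the transcribed pseudogenes 10 of 92 (10.9%). Of the 220 transcripts not matched to a gene 56 were called (25.5%), beside 74 of the 433 named ones (17.1%). The unmatched ones may include X-linked transcripts, and these differences between classes were not tested. With 2 arrays for each sex the fit has 1 residual degree of freedom, and the calls were lost when the arrays were only median-centred or when the scanner's processed signals were used, where 0 remained.

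The pattern was opposite in sign: 122 of the 130 had both female ratios above 0 and both male ratios below it. Choosing transcripts for a large difference between sexes favours such signs, and their share over all features was not counted. One of the 122 was 4933438K21Rik, a long noncoding RNA of unknown role on chromosome 4. Its level was 11.19, 10.95, 6.59 and 11.05 in mutant hearts, against 8.28, 8.88, 11.35 and 11.64 in wild-type hearts. Mutant replicate 3 and both wild-type females were low, and the other 5 hearts lay close together. The difference, female minus male, was 5.17 on the log2 scale (SE 0.85; limma adjusted p = 0.0049). The probe was well above background in 3 of 4 mutant and 4 of 4 wild-type hearts, not in mutant replicate 3, so that this difference is not exact. Fbxl12os, on chromosome 9, stood at 15.37, 15.40, 12.26 and 15.05 in mutants, against 13.57, 13.70, 15.61 and 15.74 in wild types, with the same 3 hearts low and a difference of 3.77 (SE 0.52; limma adjusted p = 0.0033). The coding gene in its symbol, Fbxl12, a subunit gene of a ubiquitin ligase, had ratios of -0.31, -0.15, -0.03 and -0.18 and did not share the pattern. Fbxl12os, classed as a transcribed pseudogene, does not overlap Fbxl12 by RefSeq positions.

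Snhg15 was the only one of the 11 measured snoRNA hosts that was called (9.09%, beside 9.26% of all features). It stood at 13.41, 13.32, 11.88 and 13.33 in mutants, against 12.35, 12.31, 13.43 and 13.93 in wild types. Mutant replicate 3 was lowest and both wild-type females followed. Its difference was 2.11 (SE 0.30; limma adjusted p = 0.0035). Rn4.5s, the rodent 4.5S RNA, which pairs with polyadenylated RNA, had 18.69, 18.78, 17.94 and 17.90 in mutants, against 16.90, 18.00, 19.64 and 18.79 in wild types. Here the wild-type female replicate 1 was lowest. The probe was saturated in 2 hearts, mutant replicate 1 and wild-type replicate 4, whose levels are lower limits, so that the difference of 2.58 (SE 0.39; limma adjusted p = 0.0037) is not exact and the highest heart is not ranked.

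The transcripts Gm10845 (3.43, SE 0.40), 4933405E24Rik (3.41, SE 0.45), Gm10536 (3.07, SE 0.38) and Gm6756 (2.88, SE 0.46), whose roles are not known, were, with 4933438K21Rik and Fbxl12os, those named for the size of the difference. All 3 probes of Gm10845 had positive ratios in females and negative ones in males. D7Ertd143e, the host of the microRNAs with the shared seed shown above, was called too, with ratios of 0.07, 0.86, -1.23 and -0.54. Of the opposite-strand transcripts 4 of 23 were called (17.4%, beside 9.26% of all features). One was Fam219aos, with ratios of 1.21, 1.23, -2.27 and -0.23, and its partner Fam219a had 1.24, 0.78, -1.15 and -0.40, the same sign on all 4 arrays. Dnmt3aos, with ratios of 0.44, 0.95, -0.83 and -0.42, differed from its partner Dnmt3a, a DNA methyltransferase gene, which had -0.10, -0.17, 0.03 and 0.03.

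**Figure D4:**
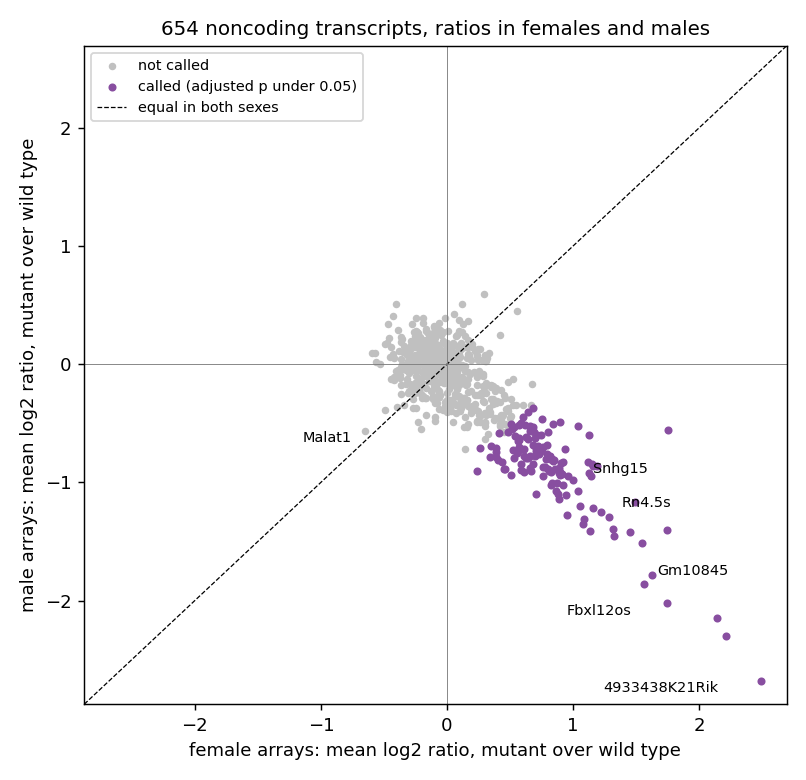
Mean log2 ratio of mutant over wild type on the 2 male arrays (y axis) against the 2 female arrays (x axis) for 654 noncoding transcripts, with the 130 called for the difference in purple and equality as a dashed line. The called transcripts fall below the line, almost all to the lower right, and 4933438K21Rik, not above background in mutant replicate 3, is drawn at its measured difference of 5.17; Malat1 lies near the line.

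The level in each heart, taken relative to a transcript's own mean over 8 hearts, gives the hearts behind the difference. The median over the 130 called noncoding transcripts was 0.42, 0.25, -0.84 and 0.17 in mutant replicates 1 to 4, against -0.42, -0.50, 0.34 and 0.66 in wild-type replicates 1 to 4. Low values thus belonged to mutant replicate 3, a male, and to wild-type replicates 1 and 2, the females. Mutant replicate 3 was the lowest heart for 109 of the 130, wild-type replicate 1 for 12 and wild-type replicate 2 for 9. The other features called with a higher ratio in females had medians of 0.37, 0.31, -0.87 and 0.21 in mutants, against -0.47, -0.50, 0.39 and 0.67 in wild types. The order of hearts within each genotype was the same. Both sets were chosen by the same test on the same hearts, which favours such a likeness, so no conclusion is drawn from it.

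A fit of the 8 hearts as separate samples, added after these values were seen, called 0 of the 654, with 151 at an unadjusted p under 0.05. Without mutant replicate 3 that fit called 4, and the median difference of the 130 was 1.00, against 1.53 with all hearts. Without mutant replicate 4 it called 147, and the median was 2.06. The share of all probes above background was 54.6%, 49.4%, 44.7% and 52.4% in mutants, against 46.3%, 49.5%, 50.9% and 53.8% in wild types, and was lowest in mutant replicate 3 and wild-type replicate 1. The piece of tissue also differed between hearts. The summed level of 7 measured atrial markers ran from 14.20 to 19.05 in mutants, against 13.67 to 17.53 in wild types, and that of 5 erythroid markers from 16.10 to 19.15 in mutants, against 16.70 to 18.98 in wild types. The part of detection, tissue composition or RNA quality in the difference between sexes was not tested.

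**Figure D5:**
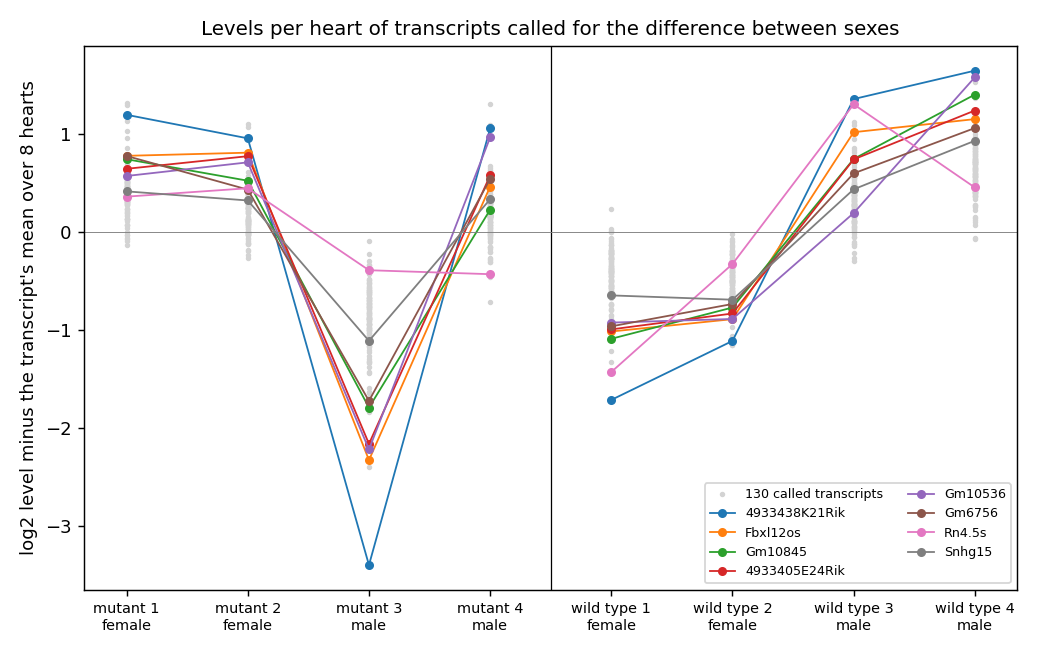
Log2 level minus the transcript's mean over 8 hearts (y axis) in each heart (x axis, mutants left, wild types right) for the 130 called noncoding transcripts in grey and 8 named ones as lines. Mutant 3, wild type 1 and wild type 2 lie low for most of the lines, and Rn4.5s is low in mutant 4 as well.

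Across the 654 transcripts, which share arrays and normalization and are not independent replicates, the ratios correlated at 0.29 between the female arrays 1 and 2 and at 0.38 between the male arrays 3 and 4, beside 0.03 and 0.31 over all features. Between a female and a male array the correlation was -0.76 to -0.27, and over all features -0.69 to -0.16.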

How the data were processed

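Per the file headers, the authors scanned 4 arrays on 1 slide in 1 scan and read them with Feature Extraction 10.7.3.1 (Agilent), the grid being annotated for mm9. The deposited intensity values used here were median spot and background brightness, uncorrected and not normalized per the file headers. The deposited series matrix, with log2 values made by the authors, and the scanner's processed signals served as alternatives. With limma 3.58.1 in R 4.3.3, background was corrected by normexp with an offset of 50 and ratios normalized by loess, with control and non-uniform spots at weight 0. An accession was represented by its brightest probe, well above background in at least 4 of 8 samples. Ratios of mutant over wild type were fitted with lmFit and eBayes and a probe-specific dye term, and the difference between sexes with a genotype-by-sex term. All tests were 2-sided and adjusted by Benjamini-Hochberg over 22317 features, and fits were tested on simulated data. The array is the replicate block, since both hearts of a number share it per the labels; deviations of the 2 hearts from their genotype means correlated at -0.49, -0.11, -0.38 and 0.50. Levels came from separate channels after Aquantile normalization. The number of arrays limits the precision.

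The members and lists were chosen with earlier results of these data known. Named were listed transcripts, up to 8 per direction with 1 sign on all arrays and the smallest p, up to 6 per direction of the largest sex differences called, the 3 widest and narrowest ratio ranges, 3 at each side of the detection limit, and up to 6 opposite-strand transcripts with a measured partner and the smallest p. D7Ertd143e, Snora47, Snora74a, Mir17hg and Mir99ahg were chosen after their values were seen. Zfp652os, Dlx6os2, Fam219aos and Dnmt3aos were named outside these rules, with their values known. Symbols came from RefSeq genes of GRCm38.p6, whose coordinates are not printed.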

Additional observations from a re-analysis of the deposited data

Results flagged for a closer look

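A heart stood far from the other 3 of its genotype in 12 of 120 groups of 4 looked at, by a test (Dixon's) that chance passes in about 1 group in 20. These groups include transcripts chosen for a large difference between sexes or a wide range over arrays, for which that rate is no fair comparison, and 5 of the 12 are such transcripts in mutant replicate 3. Mutant replicate 3 accounts for 7 of them, all low: 4933438K21Rik at 6.59, Fbxl12os at 12.26, 4933405E24Rik at 10.26, Gm10536 at 7.59, Gm6756 at 7.78, Snhg15 at 11.88 and Terc at 7.35 (normalized log2 intensity). 4933438K21Rik was not well above background there, so that its value is an upper limit. Gm4956 was low in both male hearts of array 4, at 7.87 in mutant replicate 4 and 7.92 in wild-type replicate 4. Gm5779 was high in mutant replicate 1 at 12.62, Crnde high in wild-type replicate 1 at 8.47, and Igf2os high in wild-type replicate 4 at 8.23.

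The ratio of mutant over wild type differed between females and males, by limma's genotype-by-sex term, for 130 noncoding transcripts. Named ones had differences (female minus male, log2) of 5.17 for 4933438K21Rik (not exact, as mutant replicate 3 was not above background), 3.77 for Fbxl12os, 3.43 for Gm10845, 3.41 for 4933405E24Rik, 3.07 for Gm10536, 2.88 for Gm6756, 2.58 for Rn4.5s (not exact, as 2 hearts were saturated), 2.11 for Snhg15 and 0.99 for 1700054M17Rik, the last detected in only 4 hearts.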

How the results depend on the processing

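No noncoding transcript was called between genotypes under any of the 14 alternatives tried, and over all features 1 was called with median centring, 5 with a sex term and 1 with separate channels and no replicate block, against 0 as reported. The adjusted p of Pus1 was 0.0192, 0.00417 and 0.0282 under these 3. The replicate block changed no call of a noncoding transcript between genotypes. The 32 transcripts with 1 sign on all arrays became 12 with median centring, 127 with no filter on dim probes, and 71 to 95 when a replicate pair was left out, where only 3 arrays had to agree. The median ratio of the noncoding transcripts, -0.04, lay between -0.10 and 0.03, positive with median centring (0.03, where all features had 0.08) and without replicate 3 (0.02) or 4 (0.01). For the difference between sexes, 2067 features and 130 noncoding transcripts became 0 and 0 with processed signals, with the series matrix values, with median centring and with separate channels and no replicate block. They became 1261 and 62 when all 8 samples had to be above background, which tests fewer features. With separate channels and 1 heart left out, features called ran from 0 to 2407 (without mutant replicate 4; 17 without mutant replicate 3) and noncoding transcripts from 0 to 147 (4 without mutant replicate 3). The cause of these changes was not tested. The differences of the 6 transcripts named for their size kept their sign under processed signals, matrix values and median centring, at adjusted p of 0.0586 to 0.202. No pair could be left out of the genotype-by-sex fit, which then has no residual degrees of freedom, and slide or scan as a block was not run, since each was single. Probes near background limit what can be seen of dim transcripts.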
